A study of Arabidopsis thaliana with 14 samples.

Results

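The cysteine-rich receptor-like kinases (CRKs) of Arabidopsis were followed here as a family of 41 genes, taken by locus from the 33602 genes listed in the RNA-seq counts. Of these, 20 stand side by side on chromosome 4 from CRK5 (AT4G23130) to CRK24 (AT4G23320) and are called the AT4G23 cluster below. Another 14 stand in smaller groups, namely 5 genes at AT4G04, 5 at AT4G11, 2 at AT4G21 and 2 at AT1G70, and 7 are single genes. The counts list 40 members in soil and all 41 in medium, since CRK33 (AT4G11490) is not listed in soil.

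The study compared full plants of the wild type Col-0 with ibm1-1, a line that carries a point mutation in IBM1, which encodes a demethylase of histone H3 lysine 9. For the soil experiment, plants of either genotype spent 5 days on plates of half-strength Murashige and Skoog (MS) medium and 10 days in soil, and 3 biological replicates of 15 seedlings were sequenced per genotype. For the medium experiment, seedlings of either genotype stayed on sterile half-strength MS medium until they were 7 days old, with 2 biological replicates per genotype. No other treatment was given, and only this 1 allele was sequenced. As whole plants were ground, fewer cells of a type and less RNA per cell cannot be told apart.

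A CRK carries an extracellular part with repeats of the cysteine-rich DUF26 domain, a stretch that crosses the plasma membrane and a kinase domain inside the cell. The family is one of the largest groups of receptor-like kinases in Arabidopsis, and many of its genes arose by tandem duplication. Several members are induced by pathogens, by salicylic acid (SA) or by reactive oxygen species, and overexpression of some of them causes cell death or raises disease resistance. WRKY transcription factors, many of which act in SA signalling, bind the W-box, a promoter element with the core TTGAC.

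In soil, 17 of the 39 CRK genes tested were higher in ibm1-1 and 2 were lower. In medium, 22 of 40 were higher and 0 were lower. A call asked for more than 2-fold and for a Benjamini-Hochberg adjusted p (edgeR's quasi-likelihood method) under 0.05. By the same rule, 5.87% of all genes tested were higher and 2.39% lower in soil, and 5.53% and 1.53% in medium. The same 15 genes were higher in both experiments: CRK5, CRK6, CRK7, CRK8, CRK9, CRK13, CRK15, CRK23 and CRK24 of the cluster, CRK36 to CRK39 of the AT4G04 group, and the single genes CRK4 and CRK45. Of these, only CRK4 and CRK9 passed the filter on low counts in the Col-0 libraries of both experiments. The others passed it in medium only through their ibm1-1 libraries, so their calls follow partly from the filter. Both reduced genes, CRK41 and CRK42, are single genes and were reduced in soil alone.

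To show what lies before genes that were and were not raised in both experiments, the 250 bases upstream of the annotated gene start are printed for CRK6, CRK39 and CRK23, which rose in both experiments, each followed by a related member that was not a differentially expressed gene (DEG) in either experiment: CRK10, which lies near CRK6 in the cluster, CRK40, whose coding sequence is 87.0% identical to that of CRK39, and CRK19, another gene of the cluster. Sequences are from the TAIR10.1 assembly, read 5′ to 3′ on the strand of the gene, and capitals mark the W-box core TTGAC or its reverse complement GTCAA.
CRK6 (AT4G23140, chr4:12121119-12121368, plus strand): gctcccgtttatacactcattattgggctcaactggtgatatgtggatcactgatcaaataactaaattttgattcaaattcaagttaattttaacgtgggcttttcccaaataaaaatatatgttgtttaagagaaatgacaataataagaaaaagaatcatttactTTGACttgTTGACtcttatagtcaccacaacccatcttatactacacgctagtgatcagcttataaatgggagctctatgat
CRK10 (AT4G23180, chr4:12137745-12137994, plus strand): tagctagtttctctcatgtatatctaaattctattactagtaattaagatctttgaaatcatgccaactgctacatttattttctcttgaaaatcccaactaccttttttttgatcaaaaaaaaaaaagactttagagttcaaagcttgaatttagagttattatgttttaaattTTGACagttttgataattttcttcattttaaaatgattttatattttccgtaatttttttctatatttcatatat
CRK39 (AT4G04540, chr4:2259248-2259497, plus strand): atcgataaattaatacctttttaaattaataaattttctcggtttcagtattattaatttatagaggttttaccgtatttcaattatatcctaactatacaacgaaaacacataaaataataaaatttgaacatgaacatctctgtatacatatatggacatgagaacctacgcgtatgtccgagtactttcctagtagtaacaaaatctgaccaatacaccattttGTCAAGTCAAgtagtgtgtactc
CRK40 (AT4G04570, chr4:2288366-2288615, plus strand): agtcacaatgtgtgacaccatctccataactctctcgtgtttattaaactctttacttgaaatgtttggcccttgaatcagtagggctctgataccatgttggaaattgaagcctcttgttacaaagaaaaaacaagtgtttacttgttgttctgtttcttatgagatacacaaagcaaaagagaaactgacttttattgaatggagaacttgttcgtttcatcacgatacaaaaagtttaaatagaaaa
CRK23 (AT4G23310, chr4:12185119-12185368, plus strand): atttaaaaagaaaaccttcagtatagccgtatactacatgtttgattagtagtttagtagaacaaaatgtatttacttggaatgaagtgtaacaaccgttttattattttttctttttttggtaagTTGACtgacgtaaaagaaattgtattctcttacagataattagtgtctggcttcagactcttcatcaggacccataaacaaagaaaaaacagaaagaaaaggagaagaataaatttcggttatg
CRK19 (AT4G23270, chr4:12170705-12170954, plus strand): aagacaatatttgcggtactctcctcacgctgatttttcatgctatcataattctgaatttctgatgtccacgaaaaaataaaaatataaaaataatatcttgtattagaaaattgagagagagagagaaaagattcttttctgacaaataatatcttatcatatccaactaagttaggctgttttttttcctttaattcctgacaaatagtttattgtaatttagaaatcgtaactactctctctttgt

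In these windows CRK6 has 2 W-box cores, CRK39 2, CRK23 1, CRK10 1, and CRK40 and CRK19 have 0. The core is also common elsewhere. At least 1 core, on either strand, was found in 44.9% of the 27443 windows of the same length upstream of all genes, and 2 or more in 14.1%. Among the 41 CRK genes, 30 windows (73.2%) held at least 1 and 17 (41.5%) held 2 or more, with the highest number, 6, before CRK11. Windows with a core were 13 of 15 for the genes raised in both experiments and 12 of 17 for the genes raised in neither. Over the members tested, the number of cores and the log2 fold change had a Spearman's rho of 0.23 in soil (n = 39 genes) and 0.12 in medium (n = 40 genes), a description across genes that share ancestry and sequence. The TGA core TGACG, bound by TGA factors and able to overlap TTGAC by 4 bases, was present before 14 CRK genes (34.1%) and before 18.6% of all genes. A match is a run of letters and was not tested for binding.

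In Col-0 the members spanned a wide range of levels. Per length, the mean Col-0 level in soil ran from 0.024 CPM (counts of a gene scaled to the size of its library) per kilobase of exon for CRK39 to 45.5 for CRK10, with a median of 1.72 over the 40 listed genes. In ibm1-1 the range was 0.26 to 47.7 and the median 3.97. Members below 1 CPM per kilobase numbered 18 in Col-0 and 8 in ibm1-1. In medium the corresponding medians were 0.76 and 3.22, and 21 and 11 of 41 members lay below 1. The lower end of this range thus moved more than its upper end.

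**Figure D1:**
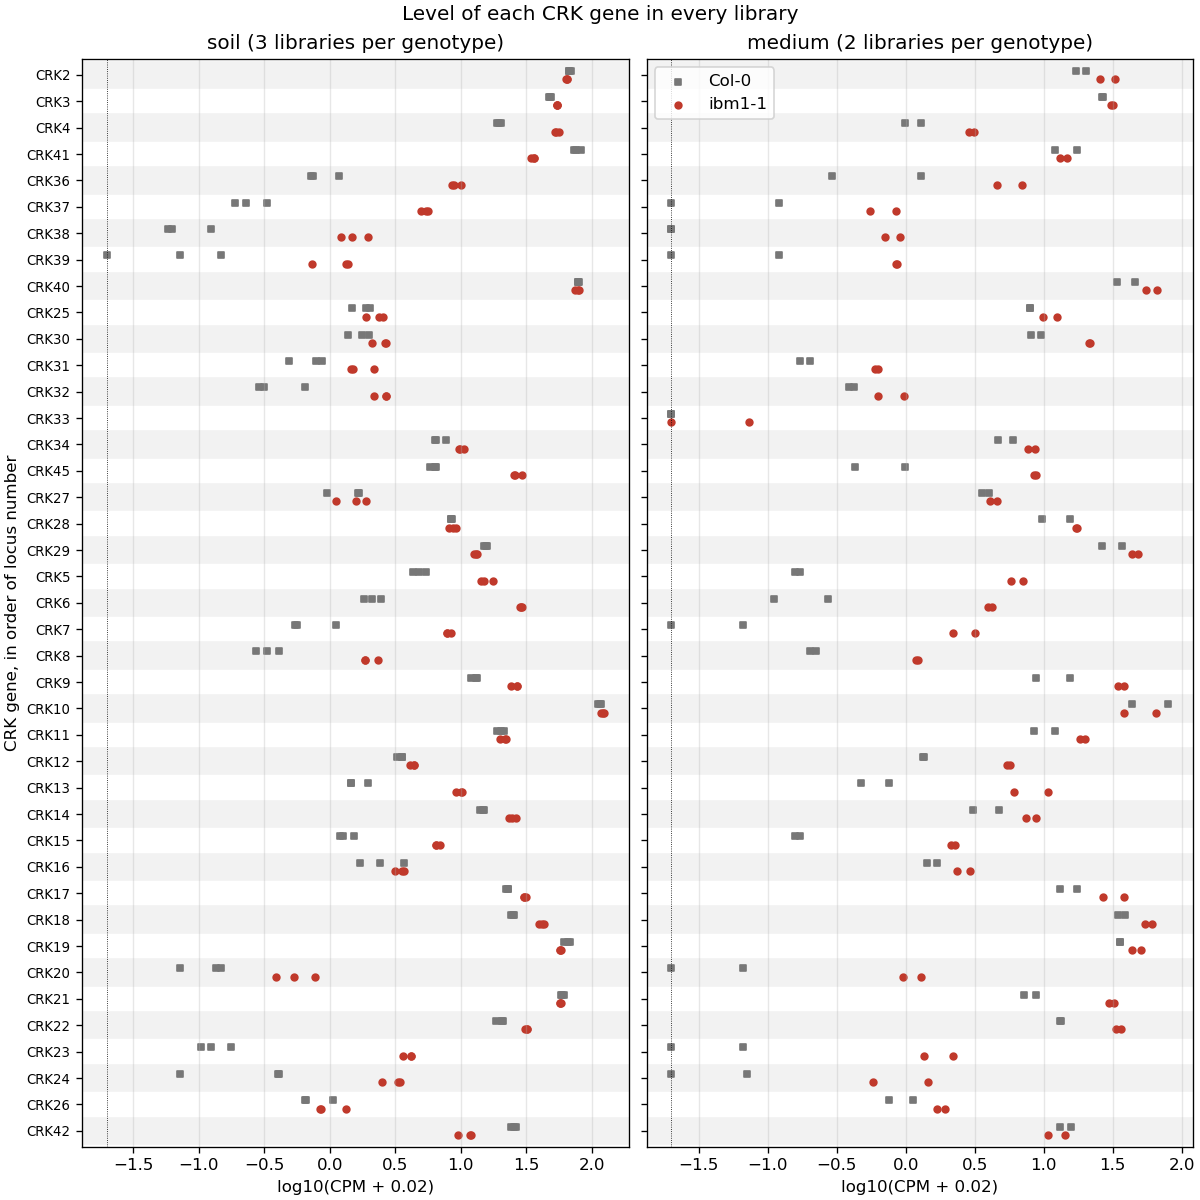
Level of each CRK gene in every library, as log10 of CPM + 0.02, in soil (left, 3 libraries per genotype) and medium (right, 2 per genotype); squares are Col-0, circles ibm1-1, and the dotted line marks 0 CPM. Genes on the left of each panel, such as CRK23 or CRK38, show a wide gap between the genotypes, whereas CRK10 and CRK40 in soil overlap, and CRK41 and CRK42 in soil are lower in ibm1-1.

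The soil libraries answer whether the family responds to loss of IBM1 in plants that met soil microbes. Of all 20082 genes tested in soil, 5.87% were higher and 2.39% lower by the same rule. Among the 39 CRK genes tested, 7 (CRK8, CRK23, CRK24, CRK32, CRK37, CRK38 and CRK39) passed the filter on low counts only through their ibm1-1 libraries, so their calls follow partly from the filter. The other 32 passed in the Col-0 libraries themselves. Of these, 10 were higher and 2 lower in ibm1-1, beside 3.76% and 2.46% of all genes that passed in this way. Without the fold threshold, 24 members were higher and 4 lower, beside 25.4% and 25.9% of all genes tested. The genotypes did not overlap in 30 of the 39 members, beside 57.1% of all genes. The median log2 fold change was 0.66 over the tested members and 0.00 over all genes.

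CRK23 (AT4G23310) had the largest change in soil. Its 3 Col-0 libraries held 0.15, 0.10 and 0.085 CPM and its ibm1-1 libraries 4.18, 4.19 and 3.59 CPM, a log2 fold change of 5.03 ± 0.31 (SE, edgeR adjusted p = 1.18e-14). CRK24 (AT4G23320), its neighbour at the end of the cluster, held 0.39, 0.052 and 0.38 CPM in Col-0 and 2.50, 3.40 and 3.31 CPM in ibm1-1, a log2 fold change of 3.38 ± 0.31. All ibm1-1 libraries of both genes lay above all Col-0 libraries.

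At the other end of the cluster stand CRK5 to CRK9, and all 5 were higher. CRK6 (AT4G23140) and CRK7 (AT4G23150) are known to act in the response to reactive oxygen species outside the cell. CRK6 held 2.09, 2.46 and 1.82 CPM in Col-0 and 28.8, 28.2 and 29.5 CPM in ibm1-1, a log2 fold change of 3.77 ± 0.10. CRK7 held 0.54, 0.52 and 1.101 CPM against 7.78, 8.38 and 7.85 CPM, a log2 fold change of 3.45 ± 0.19. The ibm1-1 libraries of either gene varied little beside the gap between the genotypes. CRK5 (AT4G23130), whose overexpression is known to cause cell death, rose from 4.30, 4.77 and 5.46 CPM to 17.5, 14.2 and 15.1 CPM, a log2 fold change of 1.69 ± 0.11.

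CRK8 (AT4G23160) held 0.39, 0.31 and 0.25 CPM in Col-0 and 1.84, 2.33 and 1.83 CPM in ibm1-1, a log2 fold change of 2.62 ± 0.30. CRK9 (AT4G23170), a short model with 798 coding bases and the shortest of the family, had the smallest rise among the genes called. It held 12.0, 13.0 and 13.3 CPM in Col-0 and 24.4, 26.8 and 26.9 CPM in ibm1-1, a log2 fold change of 1.03 ± 0.071. Without Col-0 replicate 1 its change was 0.98, just below the fold threshold.

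In the middle of the cluster, 2 genes were DEGs in soil. CRK13 (AT4G23210), whose overexpression is known to raise SA-dependent resistance, held 1.43, 1.94 and 1.44 CPM in Col-0 and 10.3, 10.0 and 9.16 CPM in ibm1-1, a log2 fold change of 2.63 ± 0.14. CRK15 (AT4G23230) held 1.24, 1.52 and 1.19 CPM against 6.51, 6.96 and 6.45 CPM, a log2 fold change of 2.35 ± 0.16. Between and beside them lay genes that changed less. CRK14, CRK17, CRK18 and CRK22 rose by 0.44 to 0.77 on the log2 scale with an adjusted p below 0.05 but less than the fold threshold. CRK10, CRK11, CRK12, CRK16 and CRK21 did not pass the adjusted p, with log2 fold changes of -0.05 to 0.40.

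CRK10 (AT4G23180) was the most abundant member and showed how little some of the cluster moved. Its Col-0 libraries held 116.2, 118.4 and 112.5 CPM and its ibm1-1 libraries 117.9, 124.1 and 122.3 CPM, and the ranges overlapped (log2 fold change 0.07 ± 0.042, edgeR adjusted p = 0.163). CRK19 (AT4G23270), known with CRK4, CRK5 and CRK20 for causing cell death when overexpressed, was lower by a small margin. It held 66.2, 62.0 and 68.3 CPM in Col-0 and 58.3, 57.3 and 57.5 CPM in ibm1-1, a log2 fold change of -0.19 ± 0.047 (adjusted p = 0.00145). CRK20 (AT4G23280) had too few counts in soil to be tested, with 0.12, 0.052 and 0.13 CPM in Col-0 and 0.37, 0.51 and 0.76 CPM in ibm1-1, and its ranges did not overlap.

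**Figure D2:**
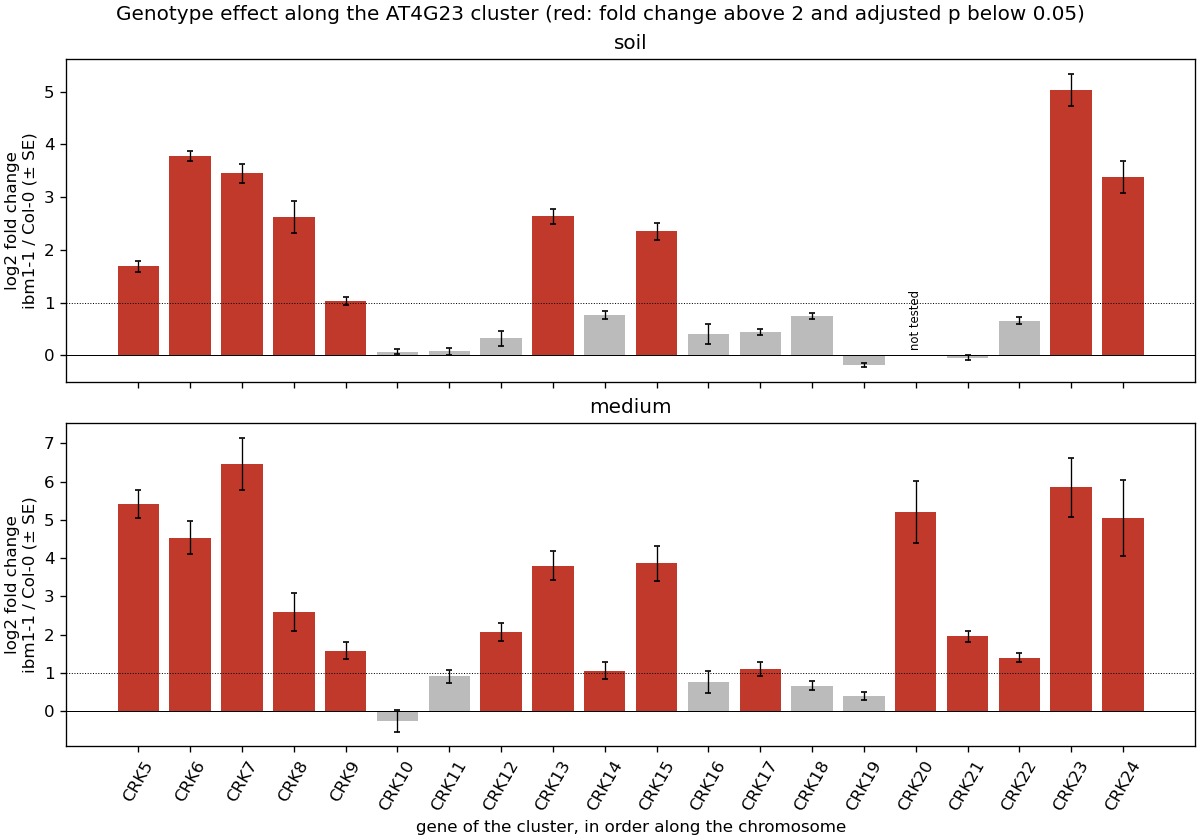
Log2 fold change of the 20 cluster genes in order along chromosome 4, in soil (top) and medium (bottom), with bars from 0, error bars for the SE of the fit and a dotted line at a fold change of 2. In soil the red bars, which mark DEGs, stand at both ends and at CRK13 and CRK15, and in medium 15 of the 20 genes are red.

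Outside the cluster, the AT4G04 group rose almost as a whole in soil. CRK37 (AT4G04500) held 0.31, 0.21 and 0.17 CPM in Col-0 and 5.00, 5.38 and 5.62 CPM in ibm1-1, a log2 fold change of 4.48 ± 0.24. CRK38 (AT4G04510) held 0.039, 0.10 and 0.042 CPM against 1.93, 1.46 and 1.20 CPM, a log2 fold change of 4.59 ± 0.47. CRK39 (AT4G04540) held 0, 0.052 and 0.13 CPM against 1.35, 1.31 and 0.72 CPM, a log2 fold change of 4.15 ± 0.55. All 3 were near the detection limit in Col-0 and clear in every ibm1-1 library. CRK36 (AT4G04490), known to bind the immune kinase BIK1, held 0.70, 1.15 and 0.72 CPM in Col-0 and 8.64, 8.90 and 10.0 CPM in ibm1-1, a log2 fold change of 3.45 ± 0.17. The fifth gene of the group, CRK40 (AT4G04570), differed from them in both level and response, with 79.3, 80.7 and 78.6 CPM in Col-0 and 79.0, 74.8 and 80.0 CPM in ibm1-1, and its ranges overlapped.

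Among the single genes in soil, CRK45 (AT4G11890), a receptor-like cytoplasmic kinase also named ARCK1 that is known to act in abscisic acid signalling together with CRK36, rose most. It held 6.31, 5.82 and 6.48 CPM in Col-0 and 25.6, 25.9 and 29.4 CPM in ibm1-1, a log2 fold change of 2.12 ± 0.083. CRK4 (AT3G45860) held 19.0, 20.4 and 19.7 CPM against 52.2, 56.3 and 53.5 CPM, a log2 fold change of 1.46 ± 0.056. Both showed little spread within a genotype. CRK25, CRK26 and CRK27 did not pass the adjusted p, with log2 fold changes of 0.15 to 0.33 and ranges that overlapped.

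CRK41 (AT4G00970) and CRK42 (AT5G40380) moved the other way in soil. CRK41, the second highest member per length in Col-0, fell from 73.9, 82.3 and 75.8 CPM to 36.2, 34.6 and 36.4 CPM, a log2 fold change of -1.11 ± 0.051 (adjusted p = 9.78e-18). CRK42 fell from 24.1, 25.5 and 26.3 CPM to 9.58, 12.0 and 11.8 CPM, a log2 fold change of -1.18 ± 0.077 (adjusted p = 7.35e-14). Neither gene had overlapping genotypes. With library size as the only scaling, the change of CRK41 was -0.99 and no longer beyond the fold threshold.

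The AT4G11 group was mixed. CRK32 (AT4G11480) rose in soil from 0.27, 0.63 and 0.30 CPM to 2.66, 2.65 and 2.15 CPM (log2 fold change 2.69 ± 0.28), and CRK31 (AT4G11470) from 0.85, 0.47 and 0.76 CPM to 1.47, 1.42 and 2.15 CPM (1.23 ± 0.27). These were the only genes called higher in soil that were not called in medium. There CRK32 changed by 1.01 ± 0.49 (edgeR adjusted p = 0.181) and CRK31 by 1.79 ± 0.59 (adjusted p = 0.0625). CRK30 and CRK34 rose by 0.56 each in soil, below the fold threshold. CRK33 had a single count over the 4 medium libraries, in ibm1-1. The AT1G70 and AT4G21 pairs held no DEG in either experiment.

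In sterile medium the question was whether the family still differed without soil microbes. Of all 20871 genes tested there, 5.53% were higher and 1.53% lower by the same rule. Among the 40 CRK genes tested, 16 passed the low-count filter only through ibm1-1, and 14 of these were called. The 24 that passed in Col-0 included 8 higher and 0 lower genes, beside 3.84% and 1.59% of all genes that passed in this way. Of the 40, 0 were lower at an unadjusted p below 0.05, and 0 in DESeq2. Without the fold threshold 29 were higher and 0 lower, beside 11.5% and 7.77% of all genes, and the genotypes did not overlap in 37 members, beside 61.8% of all genes. The median log2 fold change was 1.34 over the tested members and -0.01 over all genes. Only 2 libraries per genotype stand behind these values, and the count of raised members was 17 without Col-0 replicate 2.

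Several of the genes raised in medium were almost silent in Col-0. CRK7 had 1 count over both Col-0 libraries and 99 over both ibm1-1 libraries, a ratio of normalized levels of 111.5 with a 95% counting interval of 19.6 to 4447. CRK23 had 1 and 65 counts, a ratio of 73.2 (12.7 to 2935), and CRK24 1 and 37 counts, a ratio of 41.7 (7.03 to 1689). These intervals cover counting error only. CRK20 had 1 and 41 counts, a ratio of 46.2 (7.83 to 1867), and was called in medium. It passed the low-count filter there only through ibm1-1, so its call follows partly from the filter. For CRK37 the counts were 2 and 25, a ratio of 14.1 (3.51 to 122.6), and for CRK39 they were 2 and 31, a ratio of 17.5 (4.44 to 150.5). CRK38 had 0 and 29 counts, which makes it at least 10.9-fold higher in ibm1-1 against a floor of 3 counts over the Col-0 group. Their adjusted p in edgeR lay between 0.000249 for CRK7 and 0.019 for CRK37, and CRK24, CRK37 and CRK39 no longer passed without Col-0 replicate 2.

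Other genes of the cluster had more Col-0 counts, though few except in CRK9. CRK5 and CRK15 had 3 counts in each Col-0 library, CRK6 had 5 and 2, CRK8 had 4 and 4, and CRK13 had 9 and 16. These genes passed the low-count filter only through ibm1-1, so their calls follow partly from the filter. CRK5 held 0.15 and 0.14 CPM in Col-0 and 7.06 and 5.76 CPM in ibm1-1, a log2 fold change of 5.42 ± 0.36 (adjusted p = 1.77e-05). CRK6 held 0.25 and 0.091 CPM against 4.16 and 3.93 CPM, a log2 fold change of 4.54 ± 0.42. In both genes the ibm1-1 libraries lay more than an order of magnitude above those of Col-0. CRK13 held 0.45 and 0.73 CPM against 6.06 and 10.8 CPM (log2 fold change 3.80 ± 0.37), CRK15 held 0.15 and 0.14 CPM against 2.27 and 2.11 CPM (3.87 ± 0.46), and CRK8 held 0.20 and 0.18 CPM against 1.21 and 1.16 CPM (2.59 ± 0.49). CRK9, again the least changed of the 9 genes called in both experiments, held 15.6 and 8.76 CPM against 38.1 and 34.4 CPM, a log2 fold change of 1.58 ± 0.22.

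Of the 10 cluster genes tested in soil and not higher there, 5 were higher in medium, namely CRK12, CRK14, CRK17, CRK21 and CRK22. CRK10, CRK11, CRK16, CRK18 and CRK19 were not, with log2 fold changes of -0.26 to 0.91 in medium. CRK12 (AT4G23200) held 1.31 and 1.32 CPM in Col-0 and 5.43 and 5.71 CPM in ibm1-1, a log2 fold change of 2.07 ± 0.24. CRK21 (AT4G23290) held 8.79 and 7.21 CPM against 29.8 and 32.2 CPM (1.95 ± 0.14), and CRK22 (AT4G23300) held 13.3 and 13.0 CPM against 33.1 and 36.1 CPM (1.40 ± 0.12). Replicates of these genes lay close together. CRK14 and CRK17 were called with log2 fold changes of 1.06 and 1.09, and neither passed without Col-0 replicate 2 or without ibm1-1 replicate 1. CRK10 was not called and its libraries overlapped, with 79.8 and 43.4 CPM in Col-0 and 64.6 and 38.3 CPM in ibm1-1.

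Outside the cluster in medium, CRK45 held 0.96 and 0.41 CPM in Col-0 and 8.69 and 8.42 CPM in ibm1-1, a log2 fold change of 3.65 ± 0.31 (adjusted p = 6.16e-05). CRK36 held 1.26 and 0.27 CPM against 6.90 and 4.54 CPM, a log2 fold change of 2.92 ± 0.47, with a wide gap between its Col-0 libraries. CRK30 (AT4G11460) held 8.09 and 9.54 CPM against 21.8 and 21.4 CPM, a log2 fold change of 1.29 ± 0.14, and was the only member outside the cluster called in medium and not in soil. CRK4 rose from 0.96 and 1.28 CPM to 2.85 and 3.10 CPM (1.40 ± 0.30, adjusted p = 0.0102), and its adjusted p was 0.0528 without Col-0 replicate 1.

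The cluster was then set beside the CRK genes elsewhere. In soil, 9 of the 19 tested cluster genes and 8 of the 20 tested genes elsewhere were higher, with median log2 fold changes of 0.77 and 0.44. In medium, 15 of 20 and 7 of 20 were higher, with medians of 2.01 and 0.80. Of all genes tested, 5.87% were higher in soil and 5.53% in medium. Both parts include members that passed the filter only through ibm1-1. Among members that passed in Col-0, 6 of 16 in the cluster and 4 of 16 elsewhere were higher in soil, beside 3.76% of all such genes. In medium these were 6 of 11 and 2 of 13, beside 3.84%. The smaller groups alone gave 6 of 13 in soil and 5 of 13 in medium, and the single genes 2 of 7 in either experiment. These counts are descriptive, and the difference between the cluster and the other genes was not tested. Holding CRK38 at its bound left the median of the genes outside the cluster in medium at 0.80.

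The summed level of the cluster in soil was 368.2 to 378.0 CPM in the Col-0 libraries and 495.8 to 501.4 CPM in ibm1-1, while the sum of the other CRK genes was 356.9 to 372.1 CPM and 382.2 to 390.7 CPM. In medium the cluster summed to 175.6 to 226.3 CPM in Col-0 and 328.7 to 380.8 CPM in ibm1-1, and the others to 185.8 to 191.1 CPM and 266.3 to 291.5 CPM. The family as a whole thus took up a larger share of the transcripts in ibm1-1 in every library. The loci that flank the cluster, 20 over both sides together, of which 11 are listed in soil, were summed too. They reached 607.1 to 611.5 CPM in soil Col-0 and 534.0 to 560.6 CPM in ibm1-1, and 445.2 to 446.5 CPM and 661.6 to 717.4 CPM in medium. A single locus alone held a mean of 300.5 CPM in medium Col-0 and 529.3 CPM in medium ibm1-1. Of the flanking loci, 11 were tested in each experiment and 0 were higher by edgeR or by DESeq2 under the fold threshold. At an unadjusted p below 0.05, 2 were higher in each experiment, and these also passed the adjusted p, while 3 passed it with a lower level in soil. RBL7 (AT4G23070), a member of the rhomboid-like protein family near CRK5, was the only flanking DEG and was lower in soil, by -2.10 ± 0.38 on the log2 scale.

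The changes in the 2 experiments, which share no library, ranked the members in a similar order. Over the 39 members tested in both, the log2 fold changes had a Pearson's r of 0.86 and a Spearman's rho of 0.85, a description across genes that are not independent. These members include those that passed the filter only through ibm1-1, whose rises follow partly from the filter and rest on few Col-0 counts. No value is given for the members that passed in Col-0 alone. The sign was positive in both for 31 and negative in both for CRK41 and CRK42, and it differed for CRK2, CRK10, CRK19, CRK21, CRK29 and CRK40. Of the 17 genes higher in soil, 88.2% were also higher in medium, and of the 22 higher in medium, 68.2% were also higher in soil. Most of the genes in this overlap passed the filter in medium only through ibm1-1, and the overlap over all genes is not given here.

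**Figure D3:**
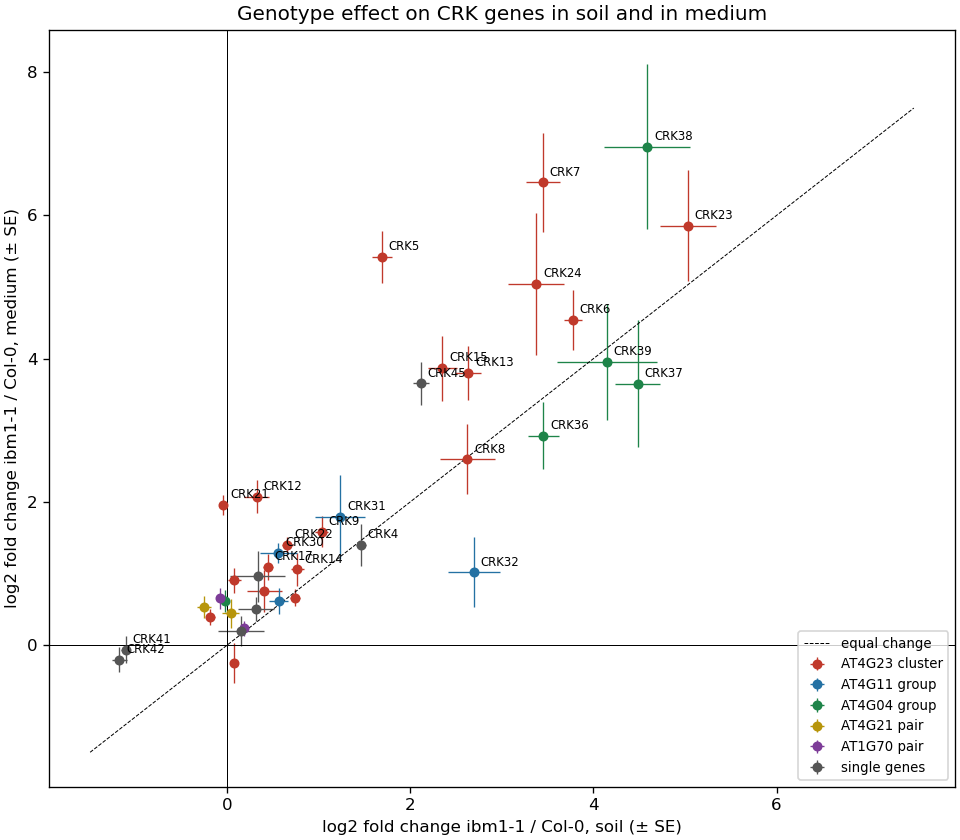
Log2 fold change of each CRK gene in soil (x axis) and in medium (y axis) with the SE of each fit, coloured by the group the gene belongs to, and a dashed line of equal change; values of genes with 0 to 3 Col-0 counts in medium, such as CRK38 and CRK7, depend on the fit and are no bounds. Most genes lie on or above the line, with CRK5, CRK12 and CRK21 far above it and CRK32 below it.

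The effect of the mutation differed between soil and medium for 14 CRK genes, by limma's voom test of the interaction with sample quality weights at an adjusted p below 0.05. All 14 changes were more positive in medium, beside 9.64% of the 20192 genes tested, and 0 were more positive in soil, beside 7.64% of all genes. Of the 40 members tested, 1 was more positive in soil at an unadjusted p below 0.05 and 0 by edgeR. The age of the plants and their growth on soil differ with the experiment, as does the processing of the reads by the methods of the study, though not by the notes of the submitters, and these cannot be told apart in this contrast.

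CRK5 had the largest such difference, at -3.53 ± 0.87 for soil minus medium on the log2 scale (limma adjusted p = 0.00674). Its Col-0 level was 4.30 to 5.46 CPM in soil but 0.14 to 0.15 CPM in medium, or 3 counts in each medium Col-0 library. In the medium fit it passed the low-count filter only through ibm1-1. CRK21 followed at -1.99 ± 0.17 (adjusted p = 3.45e-08). In soil its libraries held 58.0, 61.6 and 59.5 CPM in Col-0 and 58.4, 57.1 and 57.7 CPM in ibm1-1, so that the genotypes overlapped, whereas they were well apart in medium. CRK12 differed by -1.72 ± 0.37, with 3.25, 3.56 and 3.56 CPM in Col-0 and 4.38, 4.11 and 4.42 CPM in ibm1-1 in soil. CRK45 differed by -1.62 ± 0.53 (adjusted p = 0.0389), although it rose in both experiments. With 19 and 9 Col-0 counts in medium, CRK45 also passed the filter there only through ibm1-1.

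For CRK41 and CRK42 the fall seen in soil was not found in medium. CRK41 held 17.3 and 12.0 CPM in Col-0 and 14.8 and 13.1 CPM in ibm1-1 in medium, and CRK42 held 15.6 and 13.2 CPM against 14.2 and 10.7 CPM, with overlapping genotypes in both genes. The interaction was -1.06 ± 0.19 for CRK41 (adjusted p = 0.000312) and -1.01 ± 0.21 for CRK42 (adjusted p = 0.00189). The log2 fold changes in medium were -0.07 ± 0.18 and -0.20 ± 0.17.

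CRK2, CRK40 and CRK11 were not DEGs in either experiment but had an interaction. CRK2 (AT1G70520), known to phosphorylate the NADPH oxidase RBOHD, held 67.3, 69.7 and 67.3 CPM in Col-0 and 65.2, 63.2 and 65.2 CPM in ibm1-1 in soil. In medium it held 20.2 and 16.98 CPM against 32.6 and 25.7 CPM, and the interaction was -0.71 ± 0.15. CRK40 rose in medium from 45.5 and 34.1 CPM to 66.3 and 55.5 CPM (interaction -0.64 ± 0.13), whereas its soil libraries overlapped. CRK11 (AT4G23190) held 18.8, 20.4 and 21.4 CPM against 21.7, 20.01 and 22.1 CPM in soil and 12.0 and 8.44 CPM against 20.02 and 18.2 CPM in medium (interaction -0.84 ± 0.19).

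CRK19 and CRK29 were lower by a small margin in soil and higher in medium. CRK29 (AT4G21410), a close paralog of CRK28, held 15.9, 14.9 and 15.5 CPM in Col-0 and 12.7, 13.2 and 13.1 CPM in ibm1-1 in soil. In medium it held 26.5 and 37.0 CPM against 43.5 and 48.5 CPM, and the interaction was -0.79 ± 0.15. CRK19 held 35.8 and 36.0 CPM against 50.5 and 43.5 CPM in medium, with an interaction of -0.55 ± 0.12. Neither gene was a DEG in either experiment.

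CRK22, CRK17 and CRK9 rose in both experiments and by more in medium. CRK22 held 20.6, 18.6 and 20.9 CPM in Col-0 and 32.2, 32.0 and 30.8 CPM in ibm1-1 in soil, and its interaction was -0.72 ± 0.15. CRK17 (AT4G23250), named EMB1290 for an embryo-defective mutant, held 22.1, 23.0 and 22.8 CPM against 31.5, 30.3 and 30.4 CPM in soil and 17.4 and 13.2 CPM against 37.99 and 26.98 CPM in medium, with an interaction of -0.63 ± 0.18. The genotypes of both genes were apart in each experiment. CRK9 gave an interaction of -0.63 ± 0.20 (adjusted p = 0.0377), which fell to -0.21 and no longer passed without medium Col-0 replicate 2. CRK17 and CRK45 also no longer passed without that library, at -0.43 and -1.02.

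**Figure D4:**
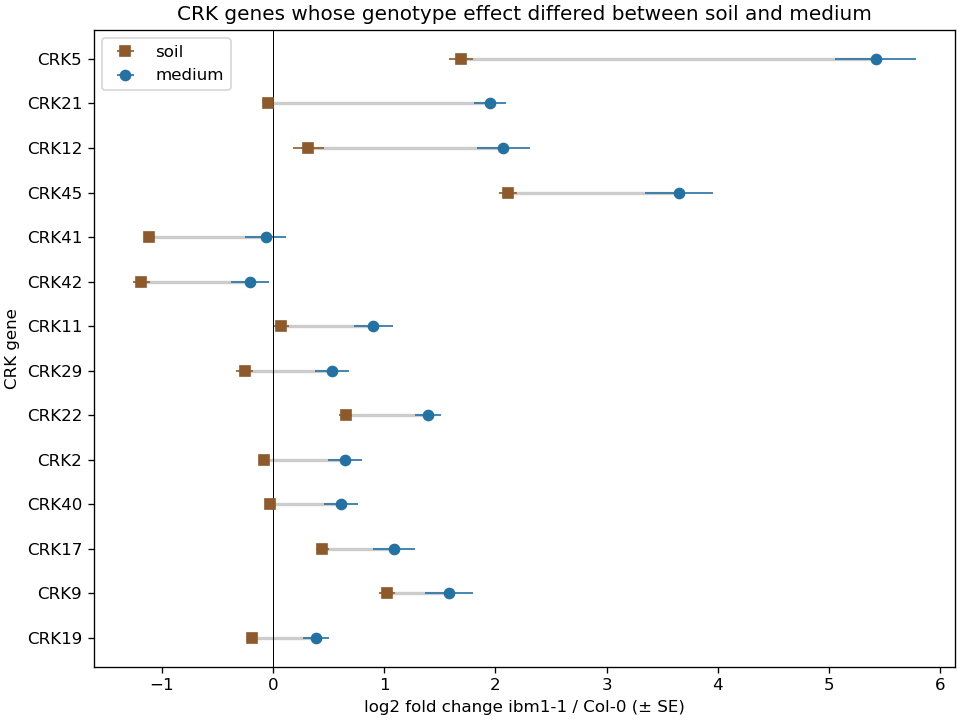
The 14 CRK genes whose genotype effect differed between the experiments, ordered by the size of the difference, with the log2 fold change in soil (squares) and in medium (circles) and the SE of each fit. Every circle lies to the right of its square, and the gap is widest for CRK5.

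The level of a gene in Col-0 was set beside the size of its change, with each taken from a different experiment. The Col-0 level per length in medium and the log2 fold change in soil had a Spearman's rho of -0.83 over 39 members, and the Col-0 level in soil and the change in medium had a rho of -0.68 over 40 members. A scarce gene could enter these values only if it was high enough in ibm1-1 to pass the filter. Over the members that passed in Col-0, a choice made after seeing the data, rho was -0.72 in soil (32 members) and -0.28 in medium (24 members). Exon length and change had a rho of -0.27 in soil and -0.23 in medium. These are descriptions across related genes.

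Genes with low Col-0 levels were called more often in the whole transcriptome too. In soil, 19.3% of all genes with a mean Col-0 level below 5 CPM were higher in ibm1-1, against 1.36% of genes at or above 5 CPM, and in medium 16.7% against 1.98%. Among the CRK genes, 14 of 20 tested members below 5 CPM and 3 of 19 above were higher in soil, and in medium 17 of 22 and 5 of 18. The members of the lower band include those that passed the filter only through ibm1-1. Among members below 5 CPM that passed in Col-0, 7 of 13 were higher in soil and 3 of 6 in medium, beside 12.0% and 10.8% of all such genes. The 3 members above 5 CPM raised in soil were CRK4, CRK9 and CRK45, named here after their values were seen.

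**Figure D5:**
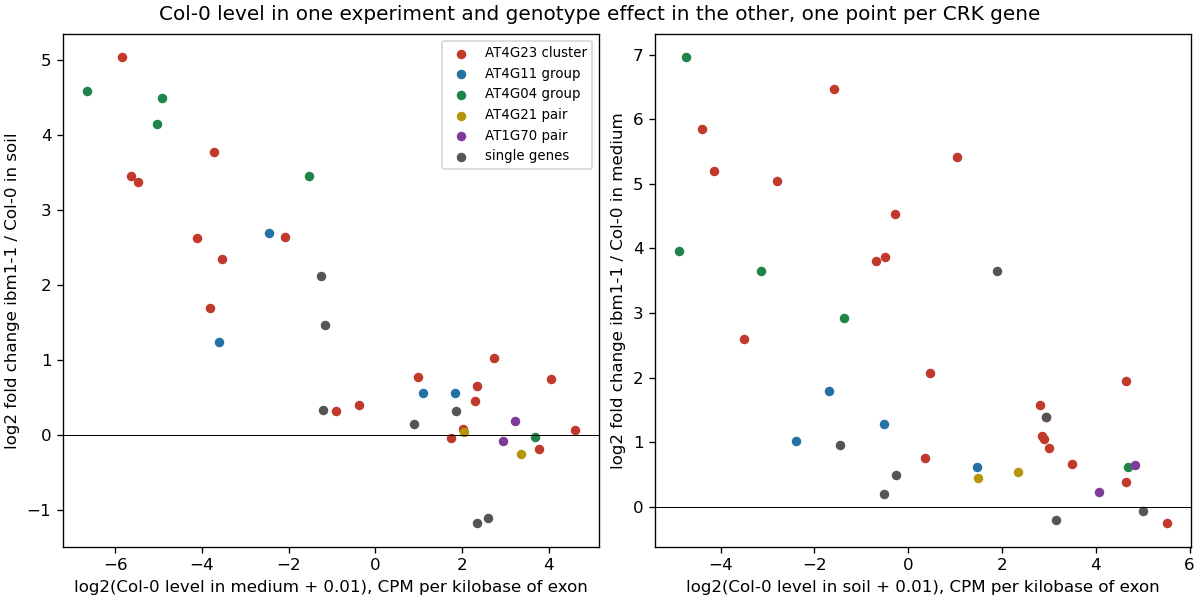
Col-0 level of each CRK gene in one experiment, as log2 of CPM per kilobase of exon + 0.01, against its log2 fold change in the other experiment, with change in soil on the left (39 genes) and change in medium on the right (40 genes). Both panels include genes that passed the low-count filter only through ibm1-1, such as CRK23 and CRK38 in soil. In the left panel the lowest genes are CRK41 and CRK42, and CRK2, CRK19, CRK21, CRK29 and CRK40 also lie below 0.

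Paralogs of the family are close enough to share stretches of sequence. In the exons of 15 members no stretch of 50 bases occurred elsewhere in the genome. The share of such stretches found elsewhere was highest in CRK6 (21.95%), CRK8 (16.5%), CRK22 (16.2%) and CRK13 (15.4%), and of the 15 genes raised in both experiments 4 had a share above 5% and 4 had none. The nearest coding sequence to CRK8 was that of CRK6, with 91.5% identity over the aligned 51.4%, and CRK19 and CRK20 were 90.4% identical. How reads that match more than 1 locus were counted is not given in the sources used here, so the values of CRK6, CRK8, CRK13 and CRK22 are uncertain to that extent. CRK5, CRK15, CRK4 and CRK45, which rose in both experiments, had no such stretch.

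Annotated models also overlap. CRK16 and CRK17 share 1190 bases on the same strand, and CRK28 and CRK29 share 470, and CRK29 shares 305 with AT4G03065. On opposite strands CRK10 and CRK11 share 32 bases, CRK25 shares 492 with ATK5, CRK19 shares 102 with AT4G23271, CRK42 shares 130 with AT5G40382 and CRK45 shares 40 with AT4G11900. The library kit keeps the strand, but the strand setting of the counting is not given in the sources used here, so reads in those stretches cannot be told apart.

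Genes that work with CRKs moved to different extents. Of 10 relatives that carry the DUF26 domain without a kinase, 0 were higher in soil by edgeR or DESeq2 (5 at an unadjusted p below 0.05) and 2 were higher in medium, CRRSP55 by 1.18 ± 0.16 and the plasmodesmatal protein PDLP1 by 1.02 ± 0.29 on the log2 scale. Of 14 immune receptors, oxidases and kinases of the same signalling layer, 0 were higher or lower in soil by either tool under the fold threshold (5 were higher and 4 lower at an unadjusted p below 0.05, and as many at the adjusted p). In medium 1 was higher, EFR, the receptor for bacterial elongation factor Tu, by 1.32 ± 0.17, whereas in soil its log2 fold change was -0.35 ± 0.11 (edgeR adjusted p = 0.00809). Without the fold threshold, 6 of the 14 were higher in medium, beside 11.5% of all genes. With it, 5.87% of all genes were higher in soil and 5.53% in medium. The medians of both lists lay within 0.27 of 0 in both experiments.

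SA genes and WRKY factors rose beside the CRK genes. Of 14 SA genes, 9 were higher in soil and 7 in medium, with medians of 1.31 and 0.98. Of all genes tested, 5.87% were higher in soil and 5.53% in medium. The SA and WRKY lists were chosen with earlier results of these data known. Among secreted defence proteins, PR2 rose by 4.64 ± 0.066 in soil and 6.27 ± 0.36 in medium, where its mean Col-0 level was only 0.14 CPM. PR1 rose by 4.22 ± 0.10 in soil and, from almost no counts in Col-0, from 0.071 ± 0.029 to 38.4 ± 3.90 CPM in medium (mean ± SD, n = 2). SARD1, a transcription factor that activates SA synthesis, rose by 1.41 ± 0.074 and 2.98 ± 0.21, and PBS3, an enzyme of SA synthesis, by 2.14 ± 0.096 and 2.82 ± 0.30. Of 10 WRKY factors, 5 were higher and 1 lower in soil and 9 were higher in medium, with medians of 1.08 and 1.99. WRKY46 rose by 3.45 ± 0.12 and 3.10 ± 0.26, while WRKY18 fell by 1.93 in soil and rose by 2.09 ± 0.13 in medium.

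Markers of other organs and cell types were read in the same libraries. Leaf mesophyll markers summed to 26480 to 34760 CPM in the soil libraries and root markers to 564.5 to 681.3 CPM. In medium, the leaf markers summed to 24730 to 31590 CPM and the root markers to 2700 to 3655 CPM. Both organs of the labelled full plants were thus present. The part of the higher root marker level of medium in the interaction was not tested. Of the 4 leaf and 5 root markers, 0 and 0 were DEGs in soil or medium by edgeR or DESeq2 (at an unadjusted p below 0.05, 2 leaf markers were lower in each experiment and 2 and 1 root markers were higher and 1 was lower in each). The 4 seed storage and oil body markers rose in soil ibm1-1, from a sum of 0.039 to 0.17 CPM in Col-0 to 57.9 to 64.4 CPM, with CRU3 and SESA3 at 0 in every Col-0 library, and their part in the CRK changes in soil was not tested. In medium the same markers summed to 1.05 to 1.26 CPM in Col-0 and 0.83 to 1.69 CPM in ibm1-1. Guard cell lineage markers summed to 56.5 to 58.5 CPM in soil Col-0 and 42.7 to 44.6 CPM in ibm1-1, and to 62.7 to 74.1 CPM and 37.4 to 46.5 CPM in medium, and 1 of the 4 was a DEG, FAMA in medium. Of the flower markers, AP1 and AG were lower in soil ibm1-1, and those listed summed to at most 3.09 CPM in any library. The part of these shifts in the CRK changes was not tested either.

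Soil libraries held between 19957585 and 27001069 counts, medium libraries between 18260809 and 21411230, and the CRK genes took 0.0694% to 0.0714% of them in soil Col-0 and 0.0906% to 0.0938% in soil ibm1-1. IBM1 (AT3G07610) itself was at 24.95 to 26.4 CPM in soil Col-0 and 18.5 to 19.6 CPM in ibm1-1, and at 25.1 to 27.3 CPM and 17.2 CPM in medium. A point mutation need not change the transcript level, so this is a weak check of the labels.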

How the data were processed

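Full plants of Col-0 and ibm1-1 were sequenced as mRNA from soil (3 libraries per genotype) and medium (2 per genotype). Bisulfite samples were not analysed here. What the authors deposited are raw gene counts on TAIR10, without normalization. The study's methods name SolexaQA, cutadapt, TopHat and HTSeq-count for soil, and Trimmomatic, HISAT and HTSeq for medium, while the submitters' processing notes name Trimmomatic 0.36, HISAT2 2.1.0 and HTSeq 0.9.1 for both. The soil counts list 21912 genes, and 11690 genes of the medium counts are not among them.

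Soil and medium were fitted separately by genotype in edgeR 4.0.16 (R 4.3.3, filterByExpr with a minimum count of 10, TMM factors, quasi-likelihood test, Benjamini-Hochberg adjustment over the tested genes). A DEG changed more than 2-fold with an adjusted p under 0.05. CPM are scaled with TMM, and SEs were taken from the test itself, as the size of the log2 change over the root of its F value. The interaction was fitted on all 10 libraries with limma 3.58.1 (voom with sample quality weights). Genes with 0 Col-0 counts were compared with a floor of 3 counts summed over the Col-0 libraries, and genes with 1 to 3 have a ratio with an exact 95% binomial interval. In simulated counts the soil step recovered 200 of 200 changed genes with 1 false call over 20040 genes. The medium step recovered 199 with 9 false calls over 20684, and the interaction 200 with 11 over 20126. All changed genes in these simulations had a mean above 5 CPM over the libraries and were changed 3-fold up or down. Recovery was thus not tested for scarcer genes, and most of the raised CRK genes lay below 5 CPM in Col-0.

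Members, lists and tests were chosen with earlier results of these data known. Values in every library are given for members called in both experiments, the 5 largest rises and falls in each, members with an interaction or with opposite directions, and CRK45. The exceptions are CRK7, CRK20, CRK23, CRK24, CRK37, CRK38 and CRK39 in medium, which are given as counts summed over the libraries of a genotype. Of other lists only DEGs are named, at most 6 each. Gene models and upstream windows come from TAIR10.1 of RefSeq, and the protein sequences planned for display were not used here. Alternatives were DESeq2 1.42.0 size factors or library size alone, the test of DESeq2, a filter on mean CPM (at least 5) or none, no fold threshold, no quality weights or edgeR for the interaction, the replicate block, and each library left out in turn.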

Additional observations from a re-analysis of the deposited data

Results flagged for a closer look

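For 14 CRK genes the effect of ibm1-1 differed between soil and medium by limma's voom test of the interaction, at an adjusted p below 0.05. The differences, as the log2 fold change in soil minus that in medium, were -3.53 for CRK5, -1.99 for CRK21, -1.72 for CRK12, -1.62 for CRK45, -1.06 for CRK41, -1.01 for CRK42, -0.84 for CRK11 and -0.79 for CRK29. The remaining 6 were -0.72 for CRK22, -0.71 for CRK2, -0.64 for CRK40, -0.63 for CRK17, -0.63 for CRK9 and -0.55 for CRK19. All were below 0. In medium, CRK5 had 3 counts in each Col-0 library and CRK45 had 19 and 9, and both passed the low-count filter there only through ibm1-1. CRK17 no longer passed without medium Col-0 replicate 2 or without medium ibm1-1 replicate 1, and CRK45 without either of these or without soil ibm1-1 replicate 2. CRK9 did not pass in edgeR, nor without either of these medium libraries, soil Col-0 replicate 2, soil Col-0 replicate 3 or soil ibm1-1 replicate 1. Age and growth condition cannot be told apart in this contrast.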

How the results depend on the processing

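Under a filter on a mean CPM of at least 5, in which scarce genes are not tested, 7 CRK genes were higher in soil (4 in the cluster) and 6 in medium (5 in the cluster). The other settings left the counts of raised genes within 1.5 times those reported, except that 11 genes outside the cluster were higher in medium without the fold threshold. Over libraries left out in turn, the count of raised CRK genes was 17 to 18 in soil (9 to 10 in the cluster) and 17 to 22 in medium (12 to 16 in the cluster), and the genes with an interaction numbered 12 to 16. In soil, 24 members were higher without the fold threshold. The replicate numbers are not known to pair the samples: same-numbered soil libraries had correlations of -0.05 to 0.04 in their deviations from the group means, and the 2 medium pairs 0.18. With the replicate block, 17 CRK genes were higher in soil (9 in the cluster) and 22 in medium (15 in the cluster), and 16 had an interaction. Of 419 alternative values for single DEGs that could still be tested, 408 kept their direction and passed both thresholds, 11 no longer passed and 0 reversed. Among tools, the DESeq2 test ended the call of CRK37 in medium (adjusted p = 0.0688) and the edgeR test ended the interaction of CRK9 (adjusted p = 0.0783). Depth limits the members with few Col-0 counts, whose fitted changes in medium are no bounds, and 2 libraries per genotype limit all medium values.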
